A study of Mus musculus with 12 samples.

Results

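The quantity described here is the part of the dormant-to-growing expression change that differed between 2 kinds of host. For each gene, the mean of dormant minus the mean of growing libraries was taken on the log2(TPM + 1) scale in KO hosts, and the same difference in WT hosts was subtracted from it. This difference of differences is called the interaction below. TPM is a share of the transcripts of a library after gene length has been divided out. All 12 libraries of the series entered, 3 in each of 4 groups, and genes at 1 TPM or more in at least 3 libraries were kept, which left 13002 of the 54146 genes of the table. The tested genes were divided by level. A total of 4811 had a mean above 5 TPM in all 4 groups and are called the expressed genes, 1342 had a mean below 1 TPM in both WT groups and are called the genes near 0 in WT hosts, and 6849 were neither.

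The cells were D2A1, a mouse mammary carcinoma line, carrying GFP fused to histone H2B and stained with the membrane dye CellVue Claret (CVC), which thins out as cells divide. They were injected into the tail vein and sorted from the lungs 12 days later, per the methods of the study, in aliquots of 50 cells. GFP-positive cells that kept the dye were taken as dormant (dormant WT, dormant KO) and those that had lost it as growing (growing WT, growing KO). Dormant cells and growing cells below mean the libraries of these sorts, whose cell content was read only from marker transcripts. KO hosts had lost Tgfbr2, the type II receptor for TGF-β, through a Cre driven by the LysM promoter, which is active in myeloid cells, and WT hosts were floxed controls; both were female mice of 6 to 8 weeks. The injected tumor cells themselves were the same in every group and kept their own Tgfbr2, so that the level of Tgfbr2 does not check the labels, and its interaction was 0.48 ± 1.145 (SE, limma adjusted p = 0.87). All WT libraries used here were of library batch 1 and all KO libraries of batch 2. In these libraries host and batch therefore cannot be told apart, but each dormant-to-growing difference lies within 1 batch. A shift between batches that multiplies a level cancels in the interaction of a gene well above 1 TPM, and does not cancel for a gene near 0, where log2(TPM + 1) is flat.

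A cell that leaves the cycle lowers its mitotic and replication transcripts, and often its anabolic metabolism, while its contacts with matrix and neighbouring cells gain weight in its survival. Osteopontin (Spp1) and fibronectin (Fn1) are matrix proteins read by integrins, and integrin signalling is one route by which a disseminated cell resumes division. The lung around such cells is made of alveolar type 1 and type 2 epithelium, endothelium, fibroblasts, mesothelium and resident and recruited leukocytes, each with its own marker transcripts.

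The libraries did not vary alike. Across the tested genes, which are not independent replicates, pairs of replicate libraries had a Pearson r of 0.949 to 0.952 in growing WT, 0.914 to 0.922 in growing KO, 0.866 to 0.882 in dormant KO and 0.666 to 0.715 in dormant WT. The spread of the dormant WT libraries enters every interaction. Genes near 0 in WT hosts held 0.0178% to 0.0425% of TPM in the WT libraries, 0.245% to 0.297% in growing KO and 1.84% to 2.13% in dormant KO. The tumor cell label was read against 17 D2A1 marker genes, whose summed level was 35584 to 44088 TPM in dormant WT, 34864 to 36975 in growing WT, 32122 to 36293 in growing KO and 2352 to 2874 in dormant KO. Most of that sum was Spp1 and Akr1c18, and the other 15 genes summed to 1073 to 1556 TPM in dormant WT, 1596 to 1694 in growing WT, 1833 to 2034 in growing KO and 1103 to 1354 in dormant KO. Those 15 did not move together. Krt19, which mesothelium also makes, was at 252 to 418 TPM in dormant KO and at most 0.59 TPM in dormant WT. Hmga1 was at 3.44 to 8.67 TPM in dormant KO and 79 to 118 in dormant WT. Their sum therefore does not measure the tumor cell content of a library. Epcam and Cdh1, epithelial adhesion genes of that list, were at 5.34 TPM or less in every library. Markers of normal lung cells moved the other way in dormant KO, as given below. In such bulk libraries fewer cells of a type and less RNA per cell cannot be told apart.

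The interaction asks whether dormant cells differed from growing cells in the same way in both hosts. Of the 13002 genes tested, 1312 were called (10.1%; limma, adjusted p at most 0.05 and a difference of at least 1), of which 803 were higher (6.18%) and 509 lower (3.91%). Here higher means that the dormant-to-growing difference was larger in KO hosts. Among expressed genes 408 were called (8.48%), and most of these, 331, were lower (6.88%, against 1.6% higher). Among genes near 0 in WT hosts 443 were called (33%), 428 of them higher (31.9%) and 15 lower (1.12%). These shares follow in large part from the class and the filter, since 79.1% of the class reached 1 TPM in at least 3 KO libraries, 54.2% in all 3 dormant KO libraries and 12.8% in all 3 growing KO libraries, so that nothing is read from them. Among the remaining genes 298 were higher (4.35%) and 163 lower (2.38%), 6.73% together. The sign held in all 81 choices of 1 library per group in 18.2% of expressed genes and 46.6% of genes near 0 in WT hosts, and in 407 of the 408 and 443 of the 443 called. The median interaction was -0.10 in expressed genes, 1.54 in genes near 0 in WT hosts, which the filter also fixes in part, and 0.17 in the rest.

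The direction of the calls among expressed genes depended on scaling. On TPM as deposited 18.9% of them were higher (77 higher, 331 lower). With median-ratio scaling 56.4% were higher (206 against 159), and with quantile normalization 36.7% (115 against 198). Over all tested genes 61.2% of calls were higher as deposited and 79.0% under median-ratio scaling. The median of all tested genes went from 0.16 as deposited to 0.49 and -0.08 under these scalings, so that the direction of a small difference is relative to the scaling. Both scalings together with a rescaling of TPM over the expressed genes left 150 of the 331 lower and 70 of the 77 higher genes called in the same direction, and no expressed gene changed the sign of its call.

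**Figure D1:**
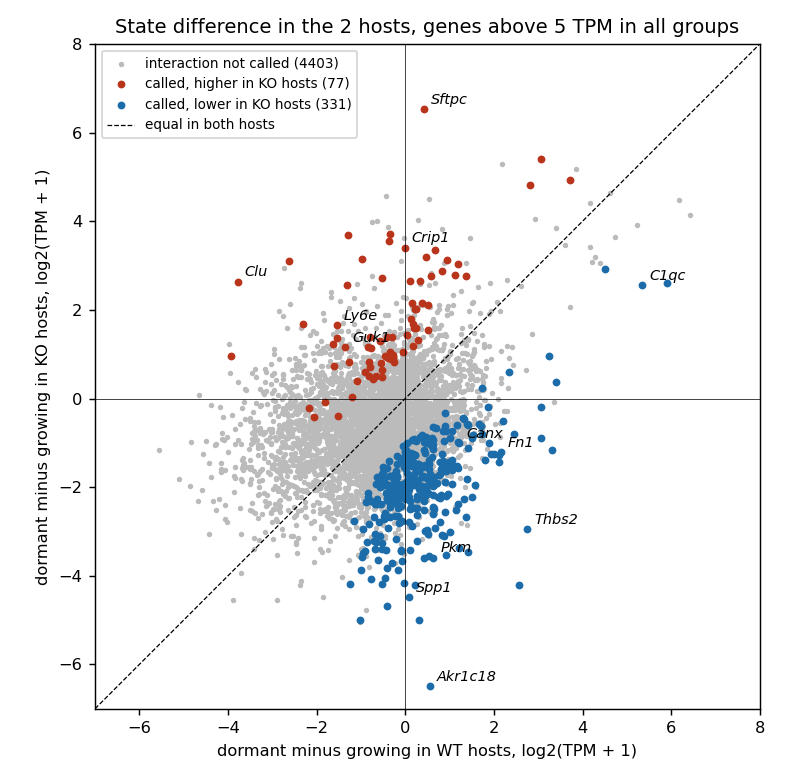
Dormant-to-growing difference in WT hosts (x axis) and in KO hosts (y axis), both on the log2(TPM + 1) scale, for the 4811 genes above 5 TPM in all 4 group means. Each point is a gene, grey where the interaction was not called, red for the 77 called higher and blue for the 331 called lower, and the dashed line marks equal differences in both hosts. The blue points lie mostly below 0 on the y axis and near 0 on the x axis.

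The state differences themselves were called for 977 genes in WT hosts (7.51%; 1.85% higher, 5.67% lower) and 2313 in KO hosts (17.8%; 8.31% higher, 9.48% lower). Higher calls made up 24.6% in WT hosts and 46.7% in KO hosts as deposited, 29.3% and 69.2% under median-ratio scaling and 50.6% and 56.9% under quantile normalization. Most of the lower interactions went with a called change in 1 host. Of the 331, 273 were called lower in dormant than in growing cells of KO hosts and not called in WT hosts, where 15.3% of all expressed genes were called lower in KO hosts and 3.01% in WT hosts, and 2.39% and 1.87% higher. A further 25 were called higher in dormant cells of WT hosts and not called in KO hosts, 3 were called in opposite directions, 3 were higher in dormant cells of both hosts, 1 was lower in both, and 26 were called in neither. Of the 77 higher genes, 36 were called higher in dormant cells of KO hosts and not called in WT hosts, 9 were called lower in WT hosts alone, 2 were opposite, 5 were higher in both hosts and 25 were called in neither. In 301 of the 331 lower genes all 3 dormant KO libraries lay below the other 9 libraries, which was so in 14.6% of expressed genes. In 62 of the 77 higher genes they lay above the other 9, which was so in 4.74% of expressed genes. Over the 4811 expressed genes the state differences in the 2 hosts had a Pearson r of 0.26 and a Spearman rho of 0.22, given as a description across genes that are not independent.

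Of the 10 expressed genes with the most negative interactions, 9 were called lower in dormant cells of KO hosts. The other, Yam1, was called higher in dormant cells of WT hosts. Akr1c18 (minus strand of chromosome 13, 4132615 to 4150654), an aldo-keto reductase that inactivates progesterone, stood at 2580, 2029 and 1549 TPM for dormant WT, 1426, 1309 and 1379 for growing WT, 12.8, 11.6 and 22.9 for dormant KO and 1623, 1423 and 1309 for growing KO. Its interaction was -7.04 ± 0.34 (SE, limma adjusted p = 1.1e-06). Spp1 (plus strand of chromosome 5, 104435118 to 104441050) had the smallest error of the 10, with an interaction of -4.57 ± 0.12 (adjusted p = 3.3e-09). It stood at 39951, 32482 and 33468 TPM for dormant WT and 31819, 34070 and 33623 for growing WT, so that its WT difference was 0.08. In dormant KO it stood at 1236, 1509 and 1427 TPM, apart from 32636, 31799 and 28980 for growing KO.

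Tes (plus strand of chromosome 6, 17065149 to 17105828), which codes for the focal adhesion protein testin, stood at 632, 793 and 519 TPM for dormant WT, 316, 322 and 375 for growing WT, 21.5, 30.3 and 37.4 for dormant KO and 401, 301 and 336 for growing KO. The dormant WT libraries lay above all growing libraries and the dormant KO libraries below them, although the WT difference (0.92, limma adjusted p = 0.039) was under the minimum of 1. Its interaction was -4.44 ± 0.34 (adjusted p = 3e-05). Aspa (minus strand of chromosome 11, 73304992 to 73329596), aspartoacylase, stood at 405, 316 and 258 TPM for dormant WT and 7.42, 11.5 and 16.4 for dormant KO, against 258, 306 and 262 for growing WT and 252, 190 and 242 for growing KO (interaction -4.44 ± 0.42, adjusted p = 0.00011). Kpna2 (minus strand of chromosome 11, 106988629 to 106999541), an importin that carries proteins into the nucleus, stood at 165, 364 and 290 TPM for dormant WT and 13.5, 22.3 and 9.74 for dormant KO. Its growing libraries were at 314, 376 and 352 TPM in WT and 445, 356 and 383 in KO (interaction -4.26 ± 0.48, adjusted p = 0.00032). The dormant KO libraries lay below all others for each of these genes.

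The other leading negative genes were less even. Aldh3a1, an aldehyde dehydrogenase, stood at 286, 343 and 180 TPM for dormant WT and 15.2, 8.16 and 0.02 for dormant KO (interaction -5.30 ± 1.099, limma adjusted p = 0.010). Ptcd3, a protein of the mitochondrial ribosome, stood at 0, 8.89 and 21 TPM for dormant KO and between 38.0 and 115 TPM elsewhere (-4.58 ± 1.21, adjusted p = 0.033). Ptcd3 kept that call in 12 of 25 alternative settings and lost it under median-ratio scaling and quantile normalization. Cxcl13, the B cell attractant chemokine, had an interaction of -6.75 ± 1.53 (adjusted p = 0.016), and its growing KO libraries were the ones apart, at 315, 360 and 328 TPM, with 0.70, 28.4 and 7.66 for growing WT and 8.14, 38.6 and 15.8 for dormant KO. Yam1, a long non-coding RNA gene (minus strand of chromosome 17, 39847113 to 39848035), stood at 14627, 4242 and 4573 TPM for dormant WT against 847, 1144 and 297 for growing WT, and at 1203, 5332 and 1187 for dormant KO against 4089, 3785 and 5497 for growing KO (-4.47 ± 0.93, adjusted p = 0.010).

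Among the 10 most positive expressed genes, Sftpc, Tspan13 and Crip2 had the tightest replicates and were higher in dormant than in growing libraries of KO hosts. Sftpc, surfactant protein C of alveolar type 2 cells, had an interaction of 6.11 ± 0.52 (limma adjusted p = 4.6e-05), with 39284, 36571 and 37725 TPM for dormant KO against 387, 419 and 423 for growing KO, and 41.2, 141 and 110 for dormant WT against 46.0, 84.6 and 68.1 for growing WT. Tspan13 (minus strand of chromosome 12, 36014557 to 36042500), a tetraspanin, stood at 298, 260 and 268 TPM for dormant KO and at 27 TPM or less in the other 9 libraries (4.05 ± 0.80, adjusted p = 0.0078). Crip2, a LIM-domain protein, stood at 851, 830 and 703 TPM for dormant KO and at 12.7 to 106 TPM elsewhere (3.93 ± 0.86, adjusted p = 0.013). Crip1, its neighbour on chromosome 12 (113146316 to 113153879, plus strand), was singled out after its values were seen. It stood at 33487, 28900 and 34064 TPM for dormant KO, against 2304, 3059 and 3760 for dormant WT, 2993, 3112 and 2942 for growing WT and 2958, 2974 and 3157 for growing KO (3.42 ± 0.19, adjusted p = 3.7e-06). Mgp, the matrix Gla protein of fibroblasts and smooth muscle, chosen in the same way, stood at 4541, 4231 and 3842 TPM for dormant KO and at 363 to 725 TPM elsewhere (3.23 ± 0.25, adjusted p = 2.7e-05).

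Several of the largest positive values rested on dormant WT libraries at or near 0. Clu (plus strand of chromosome 14, 65968483 to 65981547), the secreted chaperone clusterin, stood at 59.8, 0.29 and 0 TPM for dormant WT, 58.2, 60 and 55.5 for growing WT, 362, 546 and 400 for dormant KO and 97.4, 49.7 and 65.8 for growing KO. Its interaction of 6.42 ± 1.67 (limma adjusted p = 0.031) thus combined a difference of 2.63 in KO hosts with one of -3.78 in WT hosts, and neither state difference was called. Plpp1, a lipid phosphatase, stood at 38.1, 0 and 0 TPM for dormant WT (5.73 ± 1.60, adjusted p = 0.043), and Eif1b, a translation factor, at 22.2, 0 and 0 (4.88 ± 1.35, adjusted p = 0.042). Saa3, an acute-phase protein, stood at 17.9, 0 and 0.11 TPM for dormant WT and 897, 947 and 1128 for dormant KO (4.97 ± 1.27, adjusted p = 0.029). A dormant WT library was under 1 TPM in 5 of the 77 higher genes and in 0 of the 331 lower ones. A low dormant WT value raises the interaction by its definition, so nothing is read from this contrast. Of 25 alternative settings Clu kept its call in 12, Plpp1 in 8, Saa3 in 12 and Eif1b in 9, whereas Sftpc, Tspan13, Crip1, Mgp, Akr1c18, Spp1, Tes, Aspa and Kpna2 kept theirs in all 25. Hbb-bt (4.13, limma adjusted p = 0.036), Zfas1 (3.98, 0.031) and Smim1 (3.86, 0.029) completed the 10, with the call kept in 12, 13 and 13 of the 25.

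**Figure D2:**
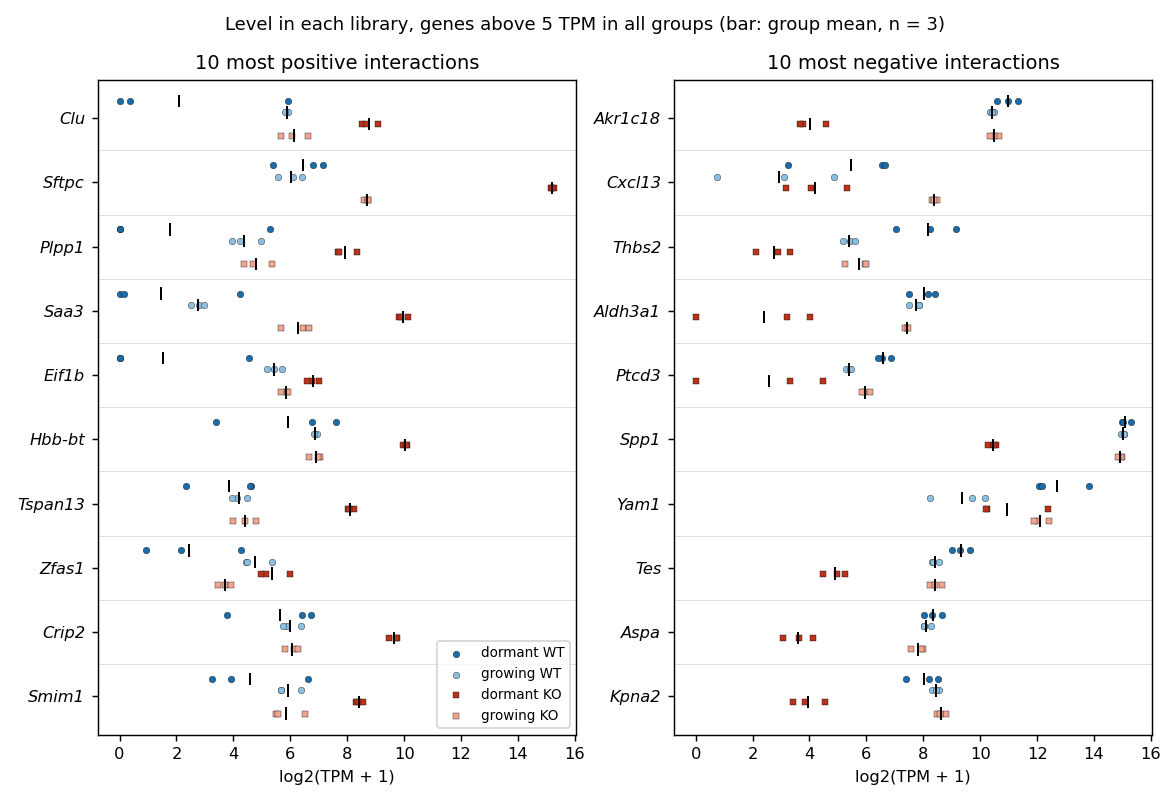
Level of the 10 expressed genes with the most positive (left) and most negative (right) interactions in each of the 12 libraries, as log2(TPM + 1), with the group mean as a bar (n = 3). Dormant KO libraries (dark red squares) stand apart on the right for Sftpc and Tspan13 and on the left for Akr1c18, Spp1 and Tes, while the dormant WT libraries (dark blue circles) of Clu and Plpp1 spread from 0 to the level of growing cells.

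Both hosts had called differences of opposite direction for 5 expressed genes. Thbs2 (minus strand of chromosome 17, 14665500 to 14694235), thrombospondin 2, a matrix protein that restrains vessel growth, stood at 573, 132 and 301 TPM for dormant WT against 35.4, 42.0 and 47.6 for growing WT, and at 8.99, 3.30 and 6.40 for dormant KO against 36.8, 60.5 and 62.6 for growing KO. The growing groups overlapped, and the dormant groups lay on either side of them. The state difference was 2.75 in WT hosts and -2.95 in KO hosts (interaction -5.70 ± 0.74, limma adjusted p = 0.00085). Fn1 (minus strand of chromosome 1, 71585520 to 71653200) stood at 297, 368 and 304 TPM for dormant WT, 62.9, 73.4 and 78.4 for growing WT, 22.1, 24.4 and 22.7 for dormant KO and 45.6, 65.3 and 54.9 for growing KO. Its differences were 2.16 and -1.21 (interaction -3.37 ± 0.37, adjusted p = 0.00027). Canx (minus strand of chromosome 11, 50293961 to 50325673), the endoplasmic reticulum chaperone calnexin, followed the same pattern with 267, 434 and 279 TPM for dormant WT, 125, 138 and 147 for growing WT, 73.0, 115 and 86.3 for dormant KO and 174, 214 and 160 for growing KO (-2.22 ± 0.36, adjusted p = 0.0032).

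The reverse pattern, lower in dormant cells of WT hosts and higher in those of KO hosts, was found for Ly6e and Guk1. Ly6e (plus strand of chromosome 15, 74955051 to 74959905), a membrane-anchored protein of the Ly6 family, stood at 175, 114 and 181 TPM for dormant WT, 409, 504 and 446 for growing WT, 1217, 1146 and 1201 for dormant KO and 362, 392 and 378 for growing KO. None of the 4 groups overlapped, the growing groups lay between the dormant ones, and the interaction was 3.20 ± 0.25 (limma adjusted p = 3.1e-05). Guk1 (minus strand of chromosome 11, 59183875 to 59192212), guanylate kinase of nucleotide metabolism, stood at 78.9, 49.7 and 62.7 TPM for dormant WT, 145, 155 and 189 for growing WT, 391, 279 and 347 for dormant KO and 139, 150 and 162 for growing KO (2.51 ± 0.34, adjusted p = 0.0010). All 5 genes kept the interaction call in each of the 25 alternative settings.

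The upstream windows of 3 of these genes are shown because their state difference turned with the host. Those of Spp1 and Crip1 are shown as abundant genes, lower and higher in that order in dormant than in growing libraries of KO hosts. Each is the 250 bases before a RefSeq start on GRCm38.p6, written on the strand of the gene, where a gene with several starts is given at the one nearest to the start of the annotated gene. For Crip1 that start was still 5696 bases from it, and for Guk1 260 bases. They are Thbs2 at chr17:14694263-14694512, minus strand, Canx at chr11:50325674-50325923, minus strand, Guk1 at chr11:59191953-59192202, minus strand, Spp1 at chr5:104434861-104435110, plus strand, and Crip1 at chr12:113151762-113152011, plus strand. Capitals mark TATAAA, the letters of a TATA box, or CCCCACCC, a box of the kind that Krüppel-like factors bind. Matches were taken on either strand and at any position of the window, so that a match need not be a working box.
Thbs2: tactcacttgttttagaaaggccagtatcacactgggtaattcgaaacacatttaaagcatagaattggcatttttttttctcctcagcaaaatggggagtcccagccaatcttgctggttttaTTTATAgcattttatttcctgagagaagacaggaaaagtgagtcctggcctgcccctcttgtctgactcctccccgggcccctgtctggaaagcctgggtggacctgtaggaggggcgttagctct
Canx: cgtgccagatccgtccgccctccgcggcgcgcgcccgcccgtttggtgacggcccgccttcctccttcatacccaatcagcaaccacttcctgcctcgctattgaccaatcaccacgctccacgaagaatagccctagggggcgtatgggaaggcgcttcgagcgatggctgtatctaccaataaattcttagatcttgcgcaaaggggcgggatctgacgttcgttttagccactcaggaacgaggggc
Guk1: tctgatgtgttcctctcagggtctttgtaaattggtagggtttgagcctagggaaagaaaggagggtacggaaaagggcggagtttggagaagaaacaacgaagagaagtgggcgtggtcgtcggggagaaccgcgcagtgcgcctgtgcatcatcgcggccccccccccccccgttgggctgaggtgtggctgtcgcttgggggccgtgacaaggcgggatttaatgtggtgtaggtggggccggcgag
Spp1: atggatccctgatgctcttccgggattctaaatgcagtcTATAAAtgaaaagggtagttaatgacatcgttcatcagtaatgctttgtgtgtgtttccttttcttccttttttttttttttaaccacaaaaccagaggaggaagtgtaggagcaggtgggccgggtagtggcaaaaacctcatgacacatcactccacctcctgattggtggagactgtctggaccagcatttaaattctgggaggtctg
Crip1: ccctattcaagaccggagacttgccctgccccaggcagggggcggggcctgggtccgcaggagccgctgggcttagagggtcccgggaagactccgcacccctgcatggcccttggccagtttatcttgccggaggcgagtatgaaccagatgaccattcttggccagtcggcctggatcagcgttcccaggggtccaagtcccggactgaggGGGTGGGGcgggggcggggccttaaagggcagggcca
Thbs2 and Spp1 each held 1 TATAAA, Crip1 held 1 CCCCACCC, and Canx and Guk1 held neither. Neither TGACTCA, the AP-1 site, nor TTCNNNGAA, the site of STAT factors, was in any of the 5 windows. A match is a description of letters and not of binding.

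Over windows that run to 50 bases past the start, matched by symbol for 49 of the 77 higher, 243 of the 331 lower and 3247 of the 4403 uncalled expressed genes, CCCCACCC on either strand was in 10.2%, 11.5% and 11.6%. TTCNNNGAA was in 6.12%, 6.996% and 6.90%, TGACTCA in 4.08%, 5.76% and 3.05%, and TATAAA in 10.2%, 10.3% and 7.42%. Among all 27025 RefSeq promoters the shares were 9.86%, 8.36%, 5.14% and 14.1% in that order. In 275 matched genes of the 428 that were near 0 in WT hosts and called higher the shares were 18.5%, 6.18%, 4.36% and 12%, and in the 8622 matched of all genes tested 12.2%, 7.09%, 3.48% and 7.26%. These shares are descriptions and were not tested.

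Gene length differed between the directions. The median exonic length in GENCODE M21 was 1523 bases in the 77 higher genes, 3421 in the 331 lower genes and 3361 in uncalled expressed genes. In all expressed genes the median interaction went from 0.12 and 0.21 in those up to 1000 and between 1000 and 2000 bases to -0.45 in those above 8000 bases. Between the shortest and the longest of these genes the median state difference was -0.40 and 0.06 in WT hosts and -0.17 and -0.44 in KO hosts. The part of length in the calls was not tested.

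Genes near 0 in WT hosts had an interaction that was almost the KO difference alone, with a median WT difference of -0.01 by the choice of the class. In the whole class 43.9% of genes had all 3 dormant KO libraries above the other 9. All 428 higher genes were also called higher in dormant cells of KO hosts, which restates the class, and 186 of the 443 called genes were listed at 0 in all 6 WT libraries. In 223 of the 428 the growing KO mean was also above both WT means. A shift between batches would be part of these values, and it cannot be told apart from the host. Slurp1 (minus strand of chromosome 15, 74724318 to 74728034), a secreted protein of the Ly6 family that acts on nicotinic receptors, stood at 666, 742 and 799 TPM for dormant KO, 6.62, 5.79 and 5.42 for growing KO and at 0.09 TPM or less in all WT libraries (6.77 ± 0.59, limma adjusted p = 6e-05). Its neighbour Lypd2 (minus strand of chromosome 15, 74732247 to 74734329), of the same family, stood at 133, 86.6 and 77.6 TPM for dormant KO and at 0.13 TPM or less in the other 9 libraries (6.66 ± 0.59, adjusted p = 6e-05). Fxyd3 (minus strand of chromosome 7, 31068172 to 31076704), a regulator of the sodium pump, stood at 303, 369 and 354 TPM for dormant KO and 9.27, 0 and 2.27 for growing KO (6.89 ± 1.02, adjusted p = 0.0018). Igkv6-15, an immunoglobulin light chain segment, stood at 134, 185 and 129 TPM for dormant KO and at 1.03 TPM or less elsewhere (6.87 ± 0.66, adjusted p = 0.00012).

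The 15 lower genes of this class were near 0 in both WT groups and fell in dormant KO from levels seen in growing KO. Igkv12-44 (minus strand of chromosome 6, 69814631 to 69815154) stood at 83.9, 66.3 and 87.7 TPM for growing KO and was at 0 in every dormant library (interaction -5.93 ± 0.65, limma adjusted p = 0.00027). Igkv14-126 stood at 35.5, 37.5 and 31.7 TPM and Ighg2c, an immunoglobulin heavy chain constant gene, at 9.82, 8.36 and 11.2 TPM for growing KO, both listed at 0 in all dormant libraries (-4.53 and -3.42, adjusted p = 0.0033 and 0.00058). Immunoglobulin segments resemble each other, so the level of each is uncertain. Cxcr3 (minus strand of chromosome X, 101731535 to 101734269), a chemokine receptor of T and NK cells, stood at 5.13, 19.3 and 8.18 TPM for growing KO and at 0 in dormant KO (-3.16 ± 0.62, adjusted p = 0.0078).

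**Figure D3:**
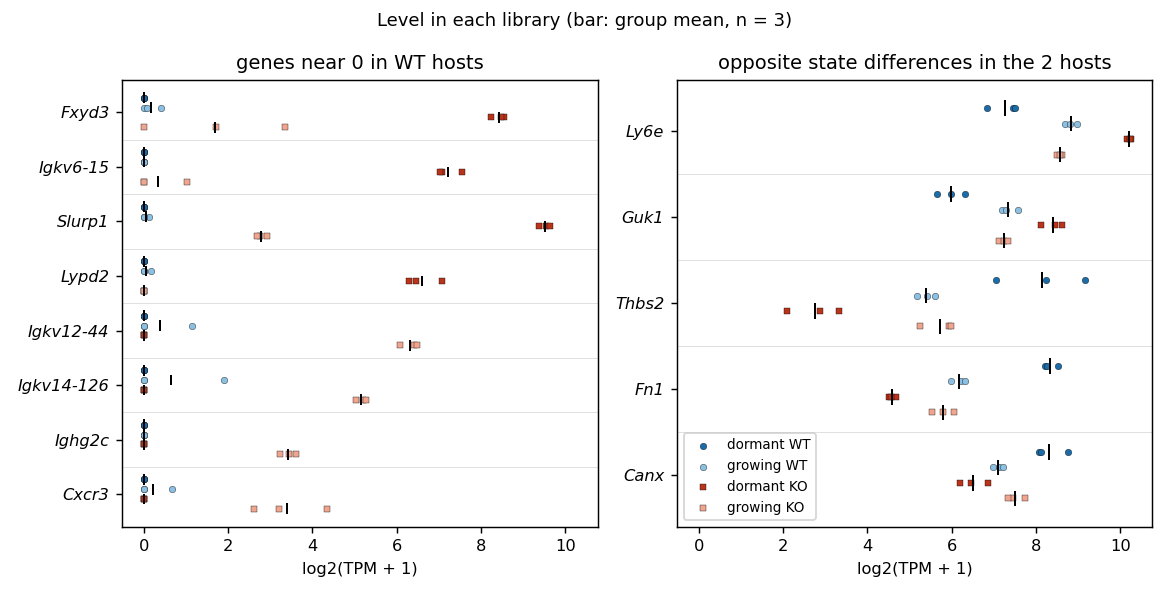
Level in each of the 12 libraries as log2(TPM + 1), with the group mean as a bar (n = 3), for the 8 leading genes near 0 in WT hosts (left) and the 5 expressed genes with opposite state differences in the 2 hosts (right). On the left only KO libraries lie above 2, and on the right the growing groups lie close together with the dormant groups on either side.

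Of 15 genes that the study dealt with, some chosen from these libraries and so no independent evidence, 14 were tested and 5 called. Of the 5, Slurp1, Cd200 and Gas6 were near 0 in WT hosts and passed the filter through KO libraries. In that class 33% of genes were called, so nothing is read from the count. Among the 9 expressed members 2 were called, against 8.48% of expressed genes. Cd200, a ligand that restrains myeloid and NK cells through its receptor, stood at 593, 640 and 487 TPM for dormant KO, 26.0, 7.16 and 6.19 for growing KO and 0 in all WT libraries (5.61 ± 0.78, limma adjusted p = 0.0013). Gas6, a ligand of TAM receptors, stood at 52.0, 89.5 and 46.2 TPM for dormant KO, 9.93, 2.83 and 3.42 for growing KO and at 0.32 TPM or less in WT (3.42 ± 0.77, adjusted p = 0.016). Slurp1 and Fn1 are given above. Itgb1, the integrin β1 subunit that pairs with α subunits to bind fibronectin, stood at 232, 148 and 104 TPM for dormant WT, 117, 98.1 and 121 for growing WT, 50.3, 42.2 and 50.6 for dormant KO and 115, 118 and 104 for growing KO. Its interaction was -1.67 ± 0.42 (adjusted p = 0.027), and Itgb1 kept the call in 11 of 25 alternative settings, losing it under median-ratio scaling and quantile normalization. Klf4 and Klf2, Krüppel-like factors linked to quiescence, had interactions of 1.17 ± 0.82 and 1.176 ± 0.58 that were not called (adjusted p = 0.47 and 0.26). Klf2 was called higher in dormant cells of KO hosts (2.43, adjusted p = 0.0016), from 9.37, 15.3 and 11.5 TPM to 80.3, 64.0 and 62.1, and was 1.26 higher in WT hosts (adjusted p = 0.085). Ifngr1, Ifngr2, Jak1, Ptk2, Ptk2b and Plaur were not called, with values between -0.59 and 1.97 and standard errors of 0.58 to 1.53. Itgb3 stood at 0.57 TPM or less in every library and was not tested.

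Counts in the gene lists that follow are set beside the shares called over all genes tested or, where nearly all members were expressed genes, over those. Of 32 DNA replication and E2F genes 0 had a called interaction in limma, against 10.1% of all genes, and 6 an unadjusted p under 0.05, while 1 was called under median-ratio scaling. Their median interaction was -0.08, and their median state difference was -2.40 in WT hosts (11 called lower, against 5.67% of all genes) and -2.34 in KO hosts (12 called lower, against 9.48%). Of 32 mitosis genes 5 were called lower in dormant cells of WT hosts and 14 in those of KO hosts, against the same 5.67% and 9.48%, and 3 had a called interaction, a share near the 10.1% of all genes. Of these 3, Cdca8 and Top2a, of the chromosome passenger complex and chromosome untangling, were lower (-3.30 and -2.14, limma adjusted p = 0.012 and 0.042), and Bub1 was higher. Cdca8 stood at 35.3, 48.8 and 172 TPM for dormant WT, 117, 129 and 100 for growing WT, 8.53, 9.38 and 6.52 for dormant KO and 156, 181 and 122 for growing KO. Uncalled values in these lists had wide errors, as for Rfc2 (4.39 ± 1.54) and Birc5 (2.54 ± 1.94). Nucleolar Myc targets had 1 higher and 2 lower of 30, again near 10.1% together, with a median of -0.56, and 9 were called lower in KO hosts, against 9.48% of all genes and 15.3% of expressed genes, and 1 in WT hosts, against 5.67% and 3.01%. Under median-ratio scaling the list had 1 higher and 0 lower.

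Among 32 genes of the unfolded protein and integrated stress response, 10 had a lower interaction and 1 a higher one, against 3.91% lower and 6.18% higher of all genes tested and 6.88% and 1.6% of expressed genes. Their median was -0.84 against 0.16 over all genes tested. The 10 included the chaperones Hspa5 (-1.21 ± 0.31, limma adjusted p = 0.030) and Calr (-1.38 ± 0.30, adjusted p = 0.012), the disulfide isomerase Pdia4 (-3.60, adjusted p = 0.047) and Phgdh of serine synthesis (-2.94, adjusted p = 0.019). Hspa5 kept its call in 10 and Pdia4 in 7 of 25 alternative settings, and both lost it under median-ratio scaling and quantile normalization. Calr kept its call in 21 settings and lost it under median-ratio scaling, and Phgdh kept its call in 20 and lost it under quantile normalization. Hspa5 stood at 689, 504 and 374 TPM for dormant WT, 716, 800 and 793 for growing WT, 187, 284 and 283 for dormant KO and 809, 921 and 872 for growing KO. The dormant KO libraries were the lowest, and the count was 4 lower and 1 higher under median-ratio scaling, with a median of -0.36. Of 31 proteasome genes 7 were lower, against 6.88% of expressed genes, with Psmd4 at -1.84 ± 0.22 (adjusted p = 0.00056) and Psmd12 at -1.79 ± 0.33 (adjusted p = 0.0051), and under median-ratio scaling 2 were lower and 1 higher. The state difference of 14 of the 31 was called lower in KO hosts, against 15.3% of expressed genes, and of 2 in WT hosts, near the 3.01% of expressed genes.

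Of 26 glycolysis and hypoxia genes 5 were lower, all glycolytic enzymes, and 1, Aldoc, was higher, against 3.91% lower and 6.18% higher of all genes tested. Pkm, pyruvate kinase, stood at 915, 893 and 711 TPM for dormant WT, 544, 527 and 548 for growing WT, 53.7, 108 and 65.2 for dormant KO and 841, 907 and 898 for growing KO (-4.22 ± 0.31, limma adjusted p = 2.4e-05). Eno1, Pgk1 and Ldha were lower by interactions of -2.54, -2.11 and -1.75 (adjusted p = 0.0040, 0.0036 and 0.0037). Of 30 cholesterol and fatty acid genes 4 were lower and 0 higher, against the same shares, and under median-ratio scaling 2 were lower and 1 higher. The 4 included Sqle (-4.15 ± 0.81, adjusted p = 0.0076) and Sc5d (-4.03 ± 0.81, adjusted p = 0.0086). Of 45 nuclear genes of oxidative phosphorylation 4 were lower and 1, Ndufs8, higher, against 6.88% lower and 1.6% higher among all expressed genes, and under median-ratio scaling 4 were higher and 0 lower. The 15 expressed genes of the mitochondrial genome had 7 higher and 0 lower, against the same 1.6% and 6.88%, with a median of 1.25, a set picked with its values in view. Among them mt-Nd3 stood at 860, 660 and 880 TPM for dormant KO and at 88.9 to 203 TPM elsewhere (2.55 ± 0.49, adjusted p = 0.0064). The count was 13 under median-ratio scaling, 5 under quantile normalization and 3 with eBayes without trend. Of 43 ribosomal protein genes 3 were higher and 1 lower, Rpl5, against 1.6% and 6.88% of expressed genes. Under median-ratio scaling 14 were higher and 0 lower, and with eBayes without trend 0 were higher and 0 lower.

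Immediate early genes, which answer growth factors and handling within minutes, had 5 of 32 lower and 0 higher, against 3.91% lower and 6.18% higher of all genes tested and 6.88% lower of expressed genes. Under median-ratio scaling 3 were lower and 1 higher, and the median of -0.36 became 0.12. Junb stood at 454, 179 and 265 TPM for dormant WT, 277, 325 and 299 for growing WT, 46.4, 93.6 and 60.5 for dormant KO and 268, 356 and 434 for growing KO (-2.31 ± 0.49, limma adjusted p = 0.012), and Fosl1 and Nr4a1 were lower by -2.61 and -2.87 (adjusted p = 0.017 and 0.034). The interferon gamma response had 1 higher and 2 lower of 33, a share near the 10.1% called over all genes. Tap2, a peptide transporter subunit, was the higher one (3.04, adjusted p = 0.019), listed at 0.02 TPM or less in dormant WT, and its partner Tap1 was lower (-3.52, adjusted p = 0.028), as was the GTPase Irgm1 (-2.49, adjusted p = 0.021). The list median was -0.24 as deposited and 0.24 under median-ratio scaling.

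Of 35 actin cytoskeleton genes 8 were higher and 5 lower, against 6.18% and 3.91% of all genes tested. Actb, cytoplasmic β-actin, stood at 11491, 14632 and 11426 TPM for dormant WT, 9145, 8023 and 9710 for growing WT, 2753, 3515 and 3272 for dormant KO and 10460, 7770 and 9340 for growing KO (-2.00 ± 0.19, limma adjusted p = 9e-05). Higher members were Myl12b, a regulatory myosin light chain (1.88 ± 0.23, adjusted p = 0.00058), and Tagln, Myl9 and Acta2 of contractile cells (5.89, 4.84 and 3.40, adjusted p = 0.00078, 0.013 and 0.040). Tagln and Acta2 were near 0 in WT hosts. The split was 10 higher and 5 lower under median-ratio scaling and 8 and 5 under quantile normalization. Of 28 matrix, integrin and focal adhesion genes 6 were lower and 1, Col3a1, higher, against 3.91% and 6.18% of all genes tested. Besides Spp1, Fn1 and Itgb1 the lower ones included Itgb4, the hemidesmosome integrin (-3.66 ± 0.70, adjusted p = 0.0067), at 19.4, 11.3 and 7.13 TPM for dormant WT and at 0.02, 0.03 and 0.66 for dormant KO, and Itgb5 (-3.22 ± 0.70, adjusted p = 0.012).

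Of 16 D2A1 marker genes tested, 4 were lower (Akr1c18, Spp1, Hmga1 and Krt8) and 3 higher (Prl2c2, Krt19 and Krt7), against 3.91% and 6.18% of all genes tested. Hmga1, a chromatin protein of proliferating and transformed cells, stood at 117, 79.0 and 118 TPM for dormant WT, 129, 107 and 110 for growing WT, 6.85, 8.67 and 3.44 for dormant KO and 76.2, 133 and 98.0 for growing KO (-3.70 ± 0.53, limma adjusted p = 0.0016). Krt8, a simple epithelial keratin, was lower by -2.12 ± 0.49 (adjusted p = 0.018), while Krt19 and Krt7, keratins that mesothelium also makes, were higher, with 252 to 418 and 29.6 to 61.5 TPM for dormant KO and at most 14.2 and 2.18 TPM elsewhere. Prl2c2, a proliferin of the prolactin family, was listed at 0 in all 3 dormant WT libraries and at 51.0 to 87.2 TPM in the other 9, and its interaction of 5.79 ± 0.52 (adjusted p = 7.4e-05) was made of a WT difference of -5.90 and a KO difference of -0.11. Prl2c2 has near-identical copies, and its level is uncertain.

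**Figure D4:**
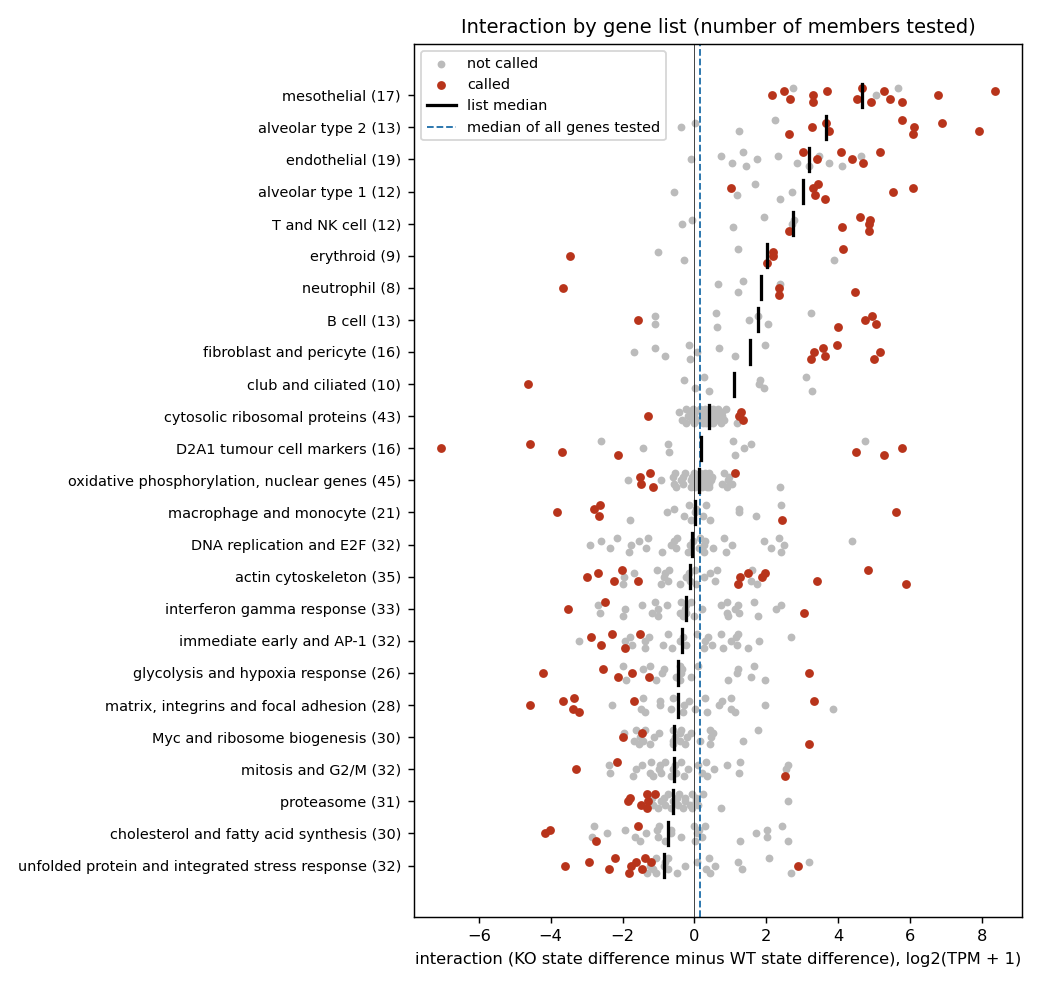
Interaction on the log2(TPM + 1) scale of each tested member of 25 gene lists, red where called and grey where not, with the list median as a black bar and the median of all 13002 tested genes, 0.16, as a dashed line. Most lists of normal lung cell markers lie to the right, with mesothelial genes at a median of 4.68, and the stress response and proteasome lists to the left, at -0.84 and -0.58.

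Most lists of normal lung cell markers had higher interactions. Their part in the results above was not tested. Higher calls made up 6.18% of all genes tested and 31.9% of those near 0 in WT hosts. Of 17 mesothelial genes tested, 11 of them near 0 in WT hosts, 14 were higher and 0 lower (median 4.68), and the summed level of the list was 312 to 333 TPM in dormant WT, 195 to 240 in growing WT, 16622 to 18294 in dormant KO and 520 to 781 in growing KO. The list was written with earlier results of these data known and holds Slurp1. Slpi, a secreted protease inhibitor, was listed at 0 in dormant WT, at 9.39, 9.94 and 10.5 TPM for growing WT, 1700, 1272 and 1712 for dormant KO and 39.7, 58.3 and 55.5 for growing KO (8.36 ± 0.48, limma adjusted p = 3.8e-06). Upk3b, a uroplakin that marks mesothelium, stood at 84.5, 135 and 95.4 TPM for dormant KO and at 0 in all WT libraries (3.31 ± 0.69, adjusted p = 0.011), whereas the interaction of Msln was not called (5.66 ± 1.70, adjusted p = 0.057).

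Alveolar type 2 genes had 9 of 13 higher (median 3.67) with sums of 43238 to 45523 TPM in dormant KO and 1548 TPM or less elsewhere. Sftpa1 stood at 2876, 3170 and 3091 TPM for dormant KO and at 63.5 TPM or less elsewhere (7.93 ± 0.86, limma adjusted p = 0.00026), and Napsa had 6.88 ± 0.93 (adjusted p = 0.0011). Alveolar type 1 genes had 7 of 12 higher (median 3.01), led by Ager (6.08, adjusted p = 0.0036) and Hopx (5.52, adjusted p = 0.012), and summed to 1745 to 2155 TPM in dormant KO and 446 TPM or less elsewhere. Endothelial genes had 6 of 19 higher (median 3.19), with Cldn5 at 5.18 and Vwf at 4.69 (adjusted p = 0.0067 and 0.0062), and sums of 1548 to 1695 TPM in dormant KO and 176 TPM or less elsewhere. Fibroblast and pericyte genes had 7 of 16 higher (median 1.55), among them Dcn (5.17, adjusted p = 0.0032) and Gpc3 (5.01, adjusted p = 0.0029), with 6037 to 6848 TPM in dormant KO and 1155 TPM or less elsewhere. Airway genes had 0 higher and 1 lower of 10, Bpifa1 (-4.63, adjusted p = 0.015), against 6.18% and 3.91% of all genes tested. They summed to 1911 to 2421 TPM in dormant KO, 1136 to 1176 in growing KO and 319 TPM or less in WT.

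Blood cell lists moved less evenly. Macrophage and monocyte genes had 2 higher and 4 lower of 21, against 6.18% and 3.91% of all genes tested, with a median of 0.01, and 11 were called higher in dormant cells of WT hosts and 14 in those of KO hosts, against 1.85% and 8.31% of all genes. The complement genes C1qa, C1qb and C1qc had lower interactions, and C1qb and C1qc were called higher in dormant cells of both hosts. C1qc stood at 250, 185 and 232 TPM for dormant WT, 1.82, 5.42 and 7.79 for growing WT, 149, 195 and 146 for dormant KO and 24.3, 30.6 and 26.0 for growing KO (interaction -2.80 ± 0.59, limma adjusted p = 0.011). The dormant groups overlapped, and growing KO lay above growing WT. Fcer1g was lower as well (-2.67, adjusted p = 0.0043), although on linear TPM its difference was larger in KO hosts. Ly6c2 was higher (5.61, adjusted p = 0.00055). The sums of this list were 2588 to 2919 TPM in dormant WT, 115 to 146 in growing WT, 5279 to 5812 in dormant KO and 342 to 382 in growing KO.

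T and NK cell genes had 6 of 12 higher (median 2.74) and B cell genes 4 of 13 higher and 1 lower (median 1.78), against 6.18% higher and 3.91% lower of all genes tested. In each list 4 members were near 0 in WT hosts, a class in which the filter favours higher calls (31.9%), and 2 of the 4 were called. The T and NK count was 1 with array weights, 2 with a block of host and number, 3 with no filter or with a pseudocount of 0.1 and 8 under median-ratio scaling. Their sums were 385 to 530 and 5332 to 6035 TPM in dormant KO, against 46.6 TPM or less and 3209 TPM or less elsewhere. Cd3g, of the T cell receptor complex, had 4.87 and Cd79a, of the B cell receptor, 4.94 (limma adjusted p = 0.0050 and 0.0025). Neutrophil genes had 3 higher and 1 lower of 8, against the same 6.18% and 3.91%. Of the 8, 4 were near 0 in WT hosts, where 31.9% of genes were higher, and 2 of these 4 were called. S100a8, an alarmin of neutrophils, was higher in dormant cells of both hosts, at 428, 559 and 304 TPM for dormant WT against 51.1, 60.7 and 38.3 for growing WT and 3207, 2912 and 3361 for dormant KO against 67.8, 87.4 and 66.0 for growing KO (2.35 ± 0.35, adjusted p = 0.0019). The list summed to 4125 to 4482 TPM in dormant KO and 392 to 1040 in dormant WT, above the growing libraries in each host. Of 9 erythroid genes 4 globin genes were higher and Bpgm lower, against 6.18% and 3.91% of all genes tested. All 5 were expressed genes, of which 1.6% were higher and 6.88% lower. The erythroid list summed to 50844 to 56286 TPM in dormant KO and 13214 TPM or less elsewhere. Hbb-bs had an interaction of 2.19 ± 0.16 (adjusted p = 2.3e-05), and Hba-a1 and Hba-a2 are near-identical copies whose separate levels are uncertain.

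**Figure D5:**
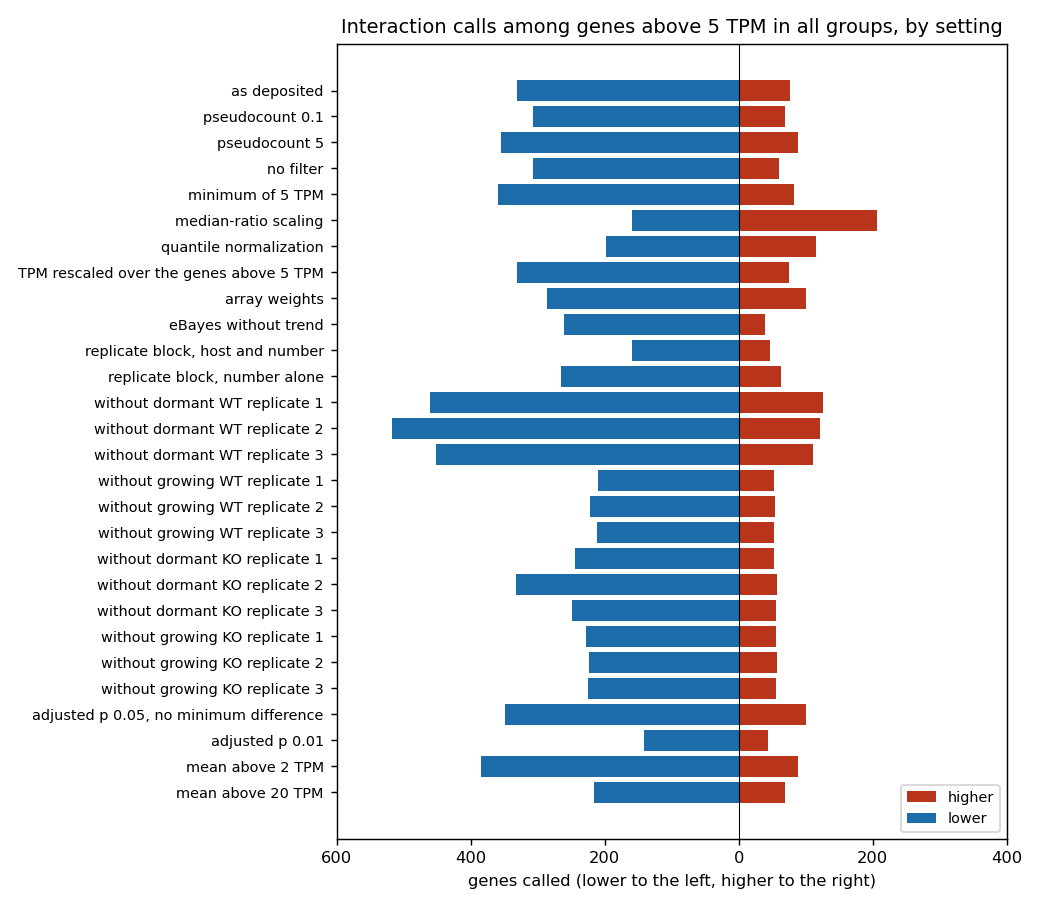
Number of expressed genes with a called interaction under each setting, lower to the left in blue and higher to the right in red, with the values as deposited at the top. Median-ratio scaling turns the majority to higher (206 against 159), and leaving out a dormant WT library raises the count to as many as 638.

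The level thresholds cut through a continuum. Ints7, with its lowest group mean at 5.003 TPM, was just inside the expressed class, and Bdh2 and Cd52, at 5 TPM exactly, just outside it. Their interactions were -1.57, -4.31 and -0.83.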

How the data were processed

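The deposited values were TPM, estimated by the authors with RSEM from reads trimmed with cutadapt and aligned with STAR to mm10. The methods name small-input Smart-seq2 libraries, the labels a TruSeq mRNA kit. TPM keeps no depth, so the number of reads behind a value is unknown and precision is the spread of 3 libraries. A group was 3 mice, and nothing says that equal numbers mark 1 mouse. A further 30 per-sample columns could not be tied to a labelled sample and were not analysed here, among them some whose names give batch 2 and WT.

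From log2(TPM + 1), limma 3.58.1 in R 4.3.3 (eBayes with trend) was fitted to all 12 libraries with 1 mean per group, and p-values were Benjamini-Hochberg adjusted over 13002 genes, two-sided. Differences on this scale understate changes at low TPM. The rule named, among called genes whose sign held in all 81 choices of 1 library per group, the 10 most positive and negative expressed genes, 4 and 4 near 0 in WT hosts, up to 4 and 4 with opposite calls, 15 genes of the study and 3 members per list. Gene models (20 and 39) were left out, and other names were chosen after their values were seen. The sign held so in 18.7% of genes tested. The members and the 26 gene lists were chosen with earlier results of these data known. Positions are from GENCODE M21 on GRCm38, matched for 12998 genes, whereas the authors used another GENCODE release. The fit was tested on simulated data. Alternatives were 2 pseudocounts, 2 filters, 3 scalings, array weights, no trend, 2 replicate blocks, 2 thresholds, other class limits, linear TPM and each library left out.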

Additional observations from a re-analysis of the deposited data

Results flagged for a closer look

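The interaction is itself a test of whether 2 hosts differ in the same contrast, so the called counts and the leading genes were set aside for a second look: 1312 genes over all tested, 408 expressed genes and 443 genes near 0 in WT hosts. Groups of 3 libraries were too small to look for outlying libraries. Among expressed genes the interactions were, on the log2(TPM + 1) scale, Clu 6.42, Sftpc 6.11, Plpp1 5.73, Saa3 4.97, Eif1b 4.88, Hbb-bt 4.13, Tspan13 4.05, Zfas1 3.98, Crip2 3.93 and Smim1 3.86 on the higher side. On the lower side they were Akr1c18 -7.04, Cxcl13 -6.75, Thbs2 -5.70, Aldh3a1 -5.30, Ptcd3 -4.58, Spp1 -4.57, Yam1 -4.47, Tes -4.44, Aspa -4.44 and Kpna2 -4.26. Opposite state differences gave Ly6e 3.20, Guk1 2.51, Fn1 -3.37 and Canx -2.22. Near 0 in WT hosts the values were Fxyd3 6.89, Igkv6-15 6.87, Slurp1 6.77, Lypd2 6.66, Igkv12-44 -5.93, Igkv14-126 -4.53, Ighg2c -3.42 and Cxcr3 -3.16.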

How the results depend on the processing

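The 408 called expressed genes kept their sign in each refit with another scale, filter, block or library set, but the counts moved. With eBayes without trend 299 expressed genes were called, 39 higher and 260 lower, and 36 of the 77 higher and 242 of the 331 lower calls were kept. The oxidative phosphorylation list then had 0 higher and 0 lower calls and the proteasome list 2 lower. Deviations from the group means correlated between -0.012 and 0.021 for same-numbered dormant and growing libraries, and between -0.018 and 0.019 for differently numbered ones. Values this small do not settle whether equal numbers mark 1 mouse. The fit with a replicate block of host and number called 670 genes in all, 205 expressed genes and 247 near 0 in WT hosts, and 415 for the WT state difference. At an adjusted p of 0.01 the counts were 615, 184 and 241, with 340 and 1383 for the WT and KO state differences. Array weights gave 231 genes near 0 in WT hosts and 310 and 3586 for the state differences. A minimum of 5 TPM left 260 near 0 in WT hosts, since fewer genes were tested, and no filter left 637 for the WT state difference. Leaving out 1 library gave 861 to 1937 calls over all genes (1937 without dormant WT replicate 1, 861 without dormant KO replicate 1), 262 to 638 among expressed genes (638 without dormant WT replicate 2, 262 without growing WT replicate 1 and 264 without growing WT replicate 3), 192 to 462 near 0 in WT hosts (192 without dormant KO replicate 1), 447 to 1918 for the WT (1918 without dormant WT replicate 1, and 481, 454 and 447 without growing WT replicates 1, 2 and 3) and 1551 to 3117 for the KO state difference. The near-0 count without dormant KO replicates 2 and 3 was 202 and 205, and the causes were not tested.

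Of 115 called named genes 77 kept the call under the block of host and number, 104 under median-ratio scaling and 66 at an adjusted p of 0.01. Aldoc kept its call in 7 of 24 settings, Top2a in 10 of 25, Nr4a1 and Acta2 in 11 each and Tap1 in 13. With all libraries in, higher calls numbered 3 to 7 in the alveolar type 1 list and 4 to 10 in the endothelial list, and lower calls 1 to 4 in the macrophage and monocyte list. Signs turned only for uncalled genes and for Fcer1g, whose difference on linear TPM was 207. Plaur was 0.23 under median-ratio scaling and -0.80 to 0.27 with 1 library left out, Tgfbr2 -0.044 under quantile normalization and -0.41 to 1.29 with 1 left out. With 1 library left out Ptk2 was -0.041 to 2.502, Ifngr1 -0.026 to 1.75 and Ifngr2 -0.11 to 1.05. TPM does not record depth, so its limit on low genes could not be given.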

Other observations

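In a window of chromosome 15 around Slurp1 and Ly6e, members of the Ly6 family, chosen after these had been seen among the leading genes, 8 genes were tested, from Slurp1 at 74724318 to Ly6c2 ending at 75111970 on GRCm38, 6 had a higher interaction, 0 a lower one, and the median was 3.92. Slurp1, Ly6e and Lypd2 were leading genes that fixed the choice of the window, and Slurp1 and Lypd2 were near 0 in WT hosts and passed the filter through KO libraries, so that the count is a description and is not set against the 6.18% of all genes tested. The others called were Ly6d, Ly6a and Ly6c2, with interactions of 4.19 ± 1.16, 1.39 ± 0.38 and 5.61 ± 0.68 (SE, limma adjusted p = 0.041, 0.041 and 0.00055). Ly6d kept its call in 13 and Ly6a in 12 of 25 alternative settings. Ly6a, the stem cell antigen Sca-1, stood at 877, 812 and 844 TPM for dormant KO, 125, 148 and 102 for growing KO, 79.2, 86.2 and 91.5 for dormant WT and 21.7, 42.4 and 37.3 for growing WT, and was thus higher with dormancy in both hosts. Ly6c1 (3.64 ± 1.79, adjusted p = 0.26) and Lynx1 (1.55 ± 0.64, adjusted p = 0.17) were not called. Ly6c1 and Ly6c2 are similar in sequence, so their separate levels are uncertain. Markers of normal lung cells were higher in the same dormant KO libraries, and their part in the family's values was not tested.

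Leaving out the mitochondrial genome and the single gene of chromosome Y, expressed genes by chromosome had median interactions from -0.62 on chromosome 3 (275 genes, 3 higher and 32 lower) and -0.60 on chromosome X (150 genes, 1 higher and 18 lower) to 0.32 on chromosome 7 (316 genes, 7 higher and 10 lower). Over all expressed genes the median was -0.10, with 1.6% called higher and 6.88% lower. The chromosomes are those with extreme medians and were chosen after their values were seen.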
